A study of Xenopus laevis with 4 samples.

Results

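The forkhead genes of the ectoderm and the Spemann organizer were followed across 4 explants of the early Xenopus laevis gastrula. They were 8 genes, namely foxi4.2.L, foxi4.2.S, foxi1.L, foxd4l1.1.S, foxd4l1.2.L, foxb1.S, foxa4.L and foxa4.S, taken by symbol from the platform's probe annotation. A probe set belonged to a gene when that gene was its single symbol, which gave 9 probe sets out of 15491 without the array controls, and foxi4.2.L was the gene with more than 1. Xenopus laevis is allotetraploid, and foxa4.L and foxa4.S, for instance, are homeologous copies from its long and short chromosomes.

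Total RNA came from explants cut at stage 10, when gastrulation begins, and was labelled with biotin after amplification from 100 ng. The 4 groups were the animal cap (prospective ectoderm), the dorsal marginal zone (the side of the organizer), the ventral marginal zone (opposite to it on the equator) and the vegetal explant (yolky prospective endoderm), with 1 array each. The labels give no strain, treatment or genotype, and the number of embryos behind an explant is not given in the sources used here. With 1 array per explant there was no replicate error, no test and no p-value, and the number of arrays limits the precision.

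Forkhead proteins bind DNA through a conserved winged-helix domain, and the family divides into lettered classes with distinct regional roles in the embryo. In Xenopus, FOXI factors act in the ectoderm, and foxi1 (also called Xema or FoxI1e) promotes ectodermal over mesendodermal fates. Proteins of the foxd4l1 genes (FoxD5) keep newly induced neural ectoderm in an immature state, foxb1 is a neural plate gene, and foxa4 (Pintallavis) marks the organizer and later the notochord and floor plate.

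Marker genes were set against the explant labels first. All 11 probe sets for epidermal markers of the animal cap that reached the filter (krt12.4, krt12.5, grhl3, dlx3 and krt70) had their highest signal in the cap. All 6 for the organizer genes gsc, chrd.1 and nodal3.1 were highest in the dorsal marginal zone, and all 9 for sox17a, sox17b.1, mixer, gata6, pgat and dazl in the vegetal explant. All 5 for tbxt, aplnr and fgf8 were highest in a marginal zone. Of 4 ventral probe sets, 3 were highest ventrally, while ventx3.2.S was 1959 in the vegetal explant and 579.6 ventrally. The organizer markers were not confined to the dorsal explant: their signals summed to 13453 dorsally, 6509.95 vegetally, 311 ventrally and 97.7 in the cap. Epidermal markers summed to 46423 in the cap, 26883 ventrally, 17417 dorsally and 211 vegetally. In RNA from whole explants, fewer cells of a type and less RNA per cell cannot be told apart.

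Signals are the deposited linear intensities. A probe set entered a comparison of 2 explants when the higher signal reached 147, the median of all values, which is called the filter below. Signals under 24.7, the 20th percentile of all values, were raised to that floor before log2 was taken, and a difference with 1 side at the floor is a lower bound. A call is a difference of 2-fold or more. No level of a probe set is set against the level of another, since probe sets differ in brightness for the same amount of RNA.

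The FOXI genes were highest in the animal cap, with the ventral marginal zone next. The brighter probe set of foxi4.2.L had a signal of 2329.6 in the animal cap, 910.0 ventrally, 529 vegetally and 342 dorsally. The foxi4.2.S probe set had 1231 in the cap, 876 ventrally, 336 dorsally and 317 vegetally. The cap was thus the brightest explant and the ventral marginal zone the second for both copies, with the dorsal marginal zone and the vegetal explant low and in opposite order. The foxi1.L probe set had the same leading order at dim signals, with 78.0 in the cap and 42.7 ventrally, and lay under the floor dorsally (10.7) and vegetally (12.6). It never reached the filter, so it entered no comparison.

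Between the animal cap and the dorsal marginal zone, foxi4.2.L was 6.82-fold higher in the cap, the 16th largest difference in that direction among 8118 probe sets. The copy foxi4.2.S was 3.67-fold higher there and ranked 49th. In that comparison 2.25% of all probe sets were called higher in the cap. Towards the vegetal explant the cap excess was 4.41-fold for foxi4.2.L and 3.89-fold for foxi4.2.S, against a background of 9.14% of 8614 probe sets called higher in the cap. Over the ventral marginal zone foxi4.2.L was called (2.56-fold, the 39th of 8082 in a direction with 1.44% called), and foxi4.2.S was not (1.41-fold). As the ventral signal was its second highest, foxi4.2.L was also 2-fold or more above all other explants, as 0.723% of probe sets were in the cap. Both copies had more signal ventrally than vegetally, and foxi4.2.S was called there (2.77-fold, 7.86% called). Between the marginal zones both copies were called higher ventrally, foxi4.2.L by 2.66-fold and foxi4.2.S by 2.61-fold, where 1.17% of 8094 probe sets were. On the log2 scale these dorsal minus ventral differences were -1.41 and -1.38, while the robust SD of that difference (from the median absolute deviation) over the 2698 probe sets with middle signal levels was 0.23. Epidermal marker signals were also higher ventrally than dorsally (26883 against 17417 summed). The 4 probe sets of krt70.S made up most of both sums and were 1.36-fold to 1.54-fold higher ventrally, and the other 7 summed to 4228 ventrally against 1126 dorsally. Their part in the FOXI difference was not tested.

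The second probe set of foxi4.2.L did not share this order. Its signals were 33.7 in the cap, 53.8 ventrally, 29.1 dorsally and 73.6 vegetally. All 4 lay between the floor and the filter, so that this probe set neither entered a comparison nor showed the cap excess of the brighter one. The FOXI directions therefore rest on 1 bright probe set per copy.

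**Figure D1:**
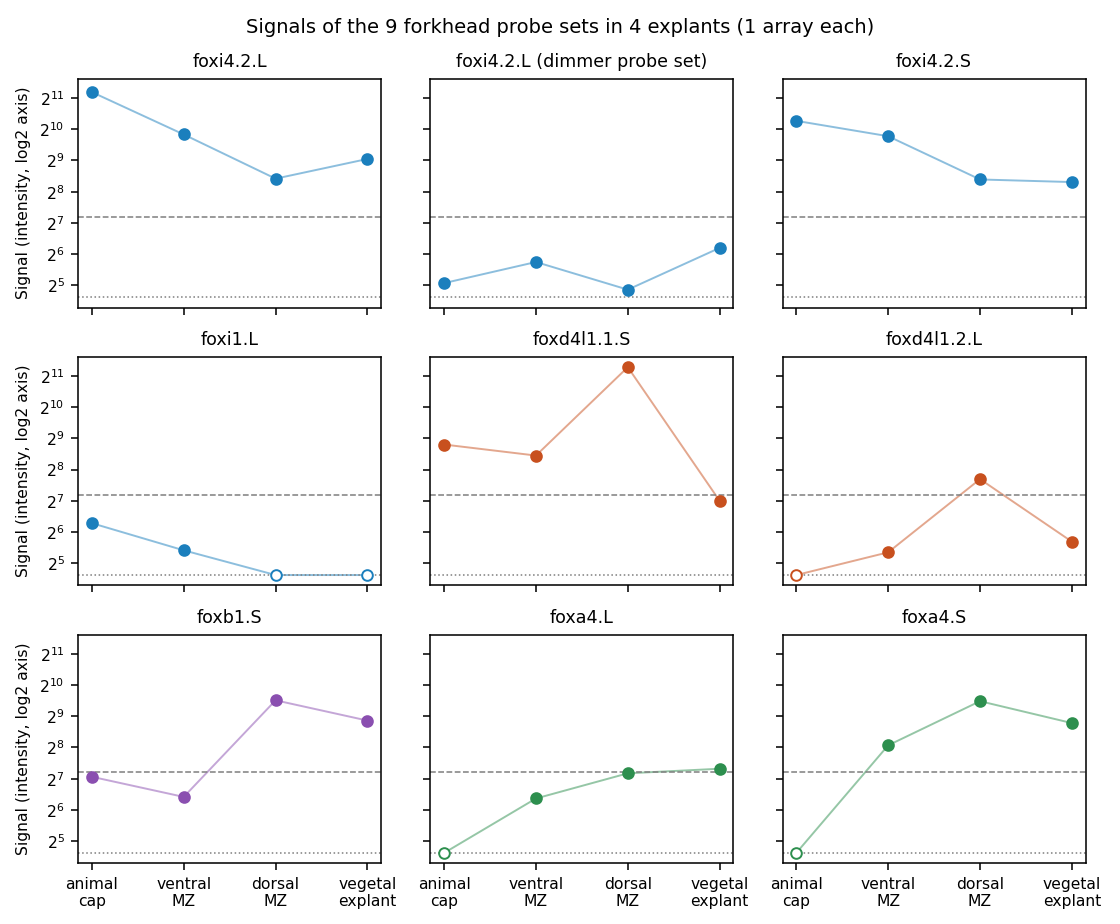
Signal of each of the 9 forkhead probe sets (y axis, linear intensity on a log2 axis) in the animal cap, ventral marginal zone (MZ), dorsal MZ and vegetal explant (x axis), 1 array each and no error bars. Open circles are signals under the floor of 24.7 drawn at the floor (dotted line), and the dashed line is the filter of 147. The FOXI genes (blue) fall from the cap through the ventral marginal zone, except at the dimmer foxi4.2.L probe set, foxd4l1.1.S and foxd4l1.2.L (orange) peak dorsally, and foxb1.S (purple) and both foxa4 copies (green) are high dorsally and vegetally.

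The foxd4l1 genes peaked in the dorsal marginal zone. The foxd4l1.1.S probe set had a signal of 2480.2 dorsally, 446 in the animal cap, 349 ventrally and 128 vegetally. The foxd4l1.2.L probe set had 207 dorsally, 51.7 vegetally, 40.9 ventrally and 1.93 in the cap. Both stood clear of every other explant dorsally, foxd4l1.1.S by 5.56-fold over the animal cap and foxd4l1.2.L by 4.0-fold over the vegetal explant. Across all 8851 probe sets that reached the filter anywhere, 0.316% were 2-fold or more above the highest other explant in the dorsal marginal zone.

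The explant next in order differed between these relatives. For foxd4l1.1.S the animal cap was second, 3.49-fold above the vegetal explant and 1.28-fold above the ventral marginal zone. For foxd4l1.2.L the cap signal lay under the floor, at least 8.39-fold below the dorsal one, and the vegetal and ventral signals of 51.7 and 40.9 were both far under the filter. The order of its low explants rests on signals that the filter would not admit. With the floor at the 40th percentile (83.4), all 3 of those explants lie at the floor, and the dorsal excess of foxd4l1.2.L over each becomes 1.31 on the log2 scale. The dorsal excess of foxd4l1.1.S over the vegetal explant was 19.4-fold, the 15th largest of 8595 in that direction, where 7.89% were called. Over the ventral marginal zone foxd4l1.1.S was 7.1-fold and foxd4l1.2.L 5.07-fold higher, ranking 22nd and 32nd of 8094 in a direction in which 1.38% were called.

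The neural plate gene foxb1.S was high both dorsally and vegetally. Its signal was 729 dorsally, 465 vegetally, 134 in the animal cap and 85.6 ventrally. The dorsal and vegetal explants lay above the filter and the cap and ventral marginal zone below it. The dorsal signal was 8.52-fold above the ventral one, the largest dorsal minus ventral difference among the 8 genes and the 18th of 8094. The vegetal signal was 5.43-fold above the ventral one and 3.48-fold above the cap. In those comparisons 9.27% and 11.7% of probe sets were called higher vegetally. Dorsal and vegetal signals differed by 0.65 on the log2 scale, beside a robust SD of 0.61 in that comparison over probe sets with middle signal levels.

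The foxa4 copies were high in the same pair of explants and under the floor in the animal cap. The foxa4.S probe set had 715 dorsally, 440.0 vegetally, 269 ventrally and 2.96 in the cap. The foxa4.L probe set had 159.9 vegetally, 144 dorsally, 82.6 ventrally and 10.9 in the cap. Against the floor, foxa4.S was at least 29.0-fold higher dorsally, at least 17.8-fold higher vegetally and at least 10.9-fold higher ventrally than in the cap. The bound for foxa4.L over the cap was at least 6.47-fold vegetally. Shares called in these directions were 3.61% for dorsal over cap, 11.7% for vegetal over cap and 3.24% for ventral over cap. The ventral marginal zone separated foxa4.S from foxb1.S: foxa4.S had a ventral signal above the filter and a dorsal excess of 2.66-fold, the 60th of 8094, whereas foxb1.S had its lowest signal there.

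The signals of foxb1.S and the foxa4 copies in the vegetal explant stood beside organizer markers in the same RNA. The gsc.S copy of goosecoid, an organizer homeobox gene, had 2594 vegetally against 2662 dorsally. Both probe sets of the other copy, gsc.L, were lower vegetally, with 1553 against 3769.5 and 410 against 1018 dorsally. The BMP antagonist gene chrd.1.S had 360.0 vegetally against 3523 dorsally on its brighter probe set. The dorsal to vegetal relation therefore varied among organizer genes as it did among the forkhead genes, where it ran from 19.4-fold for foxd4l1.1.S to 1.62-fold for foxa4.S and 1.57-fold for foxb1.S, with foxa4.L 1.11-fold higher vegetally. How far shared dorsal tissue in the explants enters these values was not tested.

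**Figure D2:**
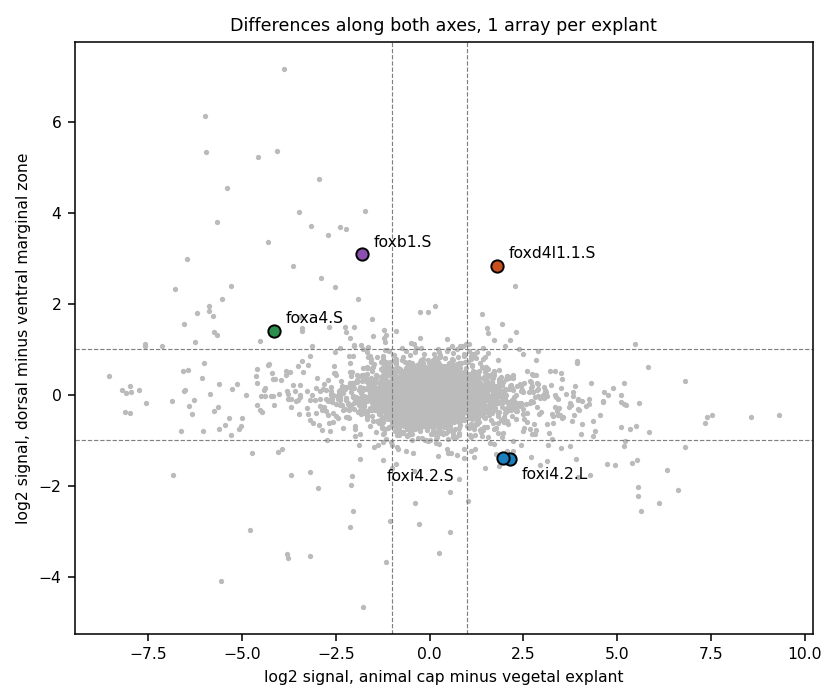
Each grey point is 1 of the 7857 probe sets that entered both comparisons, with the log2 difference between animal cap and vegetal explant on the x axis and between dorsal and ventral marginal zone on the y axis; dashed lines mark 2-fold and coloured points are the 5 probe sets of the 8 forkhead genes that are among them. The foxi4.2 copies lie together on the cap and ventral side, foxb1.S and foxa4.S on the vegetal and dorsal side, and foxd4l1.1.S alone among the coloured points on the cap and dorsal side.

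Both axes together placed the forkhead genes in 3 different sectors. These comparisons share no array, and the division into sectors was chosen after the values were seen. Of 7857 probe sets that entered both, 37 (0.471%) were 2-fold or more higher both in the cap than vegetally and ventrally than dorsally, among them foxi4.2.L and foxi4.2.S. The vegetal and dorsal sector held 60 (0.764%), with foxb1.S and foxa4.S. The cap and dorsal sector was the emptiest, with 13 probe sets (0.165%), and it held foxd4l1.1.S. The vegetal and ventral sector held 28 (0.356%), with none of the 5 probe sets of the forkhead genes that entered both comparisons. Since foxd4l1.2.L, foxa4.L and foxi1.L were too dim in 1 or both comparisons, their sectors are not given.

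The copies on the long and short chromosome sets were compared next, by their differences between explants. For foxi4.2 the copies matched between the marginal zones, where their log2 differences lay 0.03 apart. They were also close between cap and vegetal explant, at 2.14 for foxi4.2.L and 1.96 for foxi4.2.S. They parted in the other comparisons. Over the ventral marginal zone the cap excess was 1.36 on the log2 scale for foxi4.2.L and 0.49 for foxi4.2.S. The gap of 0.86 was larger than in 93.8% of the 548 homeologous pairs measured in that comparison, whose median gap was 0.21. Only 30 of those pairs had a copy 2-fold or more apart, as foxi4.2 did. Their median gap was 0.94, so the foxi4.2 gap was not large among them. For the cap against the dorsal marginal zone, the differences were 2.77 for foxi4.2.L and 1.88 for foxi4.2.S. That gap of 0.89 was larger than in 94.3% of 544 pairs. The 41 of those pairs with a copy 2-fold or more apart had a median gap of 0.71. In the vegetal explant foxi4.2.L was again the higher copy relative to each marginal zone, by 0.71 against the dorsal one (larger than in 75.8% of pairs) and by 0.68 against the ventral one (73.6%). Against the ventral one, where foxi4.2.S was called, the 130 pairs with a copy 2-fold or more apart had a median gap of 0.95. For the cap and for the vegetal explant, the gaps against the dorsal and ventral zones are not separate results, as the copies matched between those zones. Probe sets of a single gene also differ: the SD of the difference between them was 0.50 for cap against ventral and 0.51 for cap against dorsal. It was 0.64 for vegetal against dorsal and 0.65 for vegetal against ventral, close to the foxi4.2 gaps there. Cross-hybridisation between copies was not tested.

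For foxa4 the cap signals of both copies lay under the floor, so that no gap involving the cap can be read. Between the vegetal explant and the dorsal marginal zone, foxa4.L differed by 0.15 on the log2 scale towards the vegetal side and foxa4.S by 0.70 towards the dorsal side. This gap of 0.85 exceeded that of 82.3% of 571 homeologous pairs (median 0.40). The robust SD in that comparison was 0.87 over dim probe sets, such as that of foxa4.L, and 0.61 over those with middle signal levels, such as that of foxa4.S. The dorsal excess over the ventral marginal zone was 2.66-fold for foxa4.S and 1.75-fold for foxa4.L, whose dorsal signal of 144 just missed the filter.

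**Figure D3:**
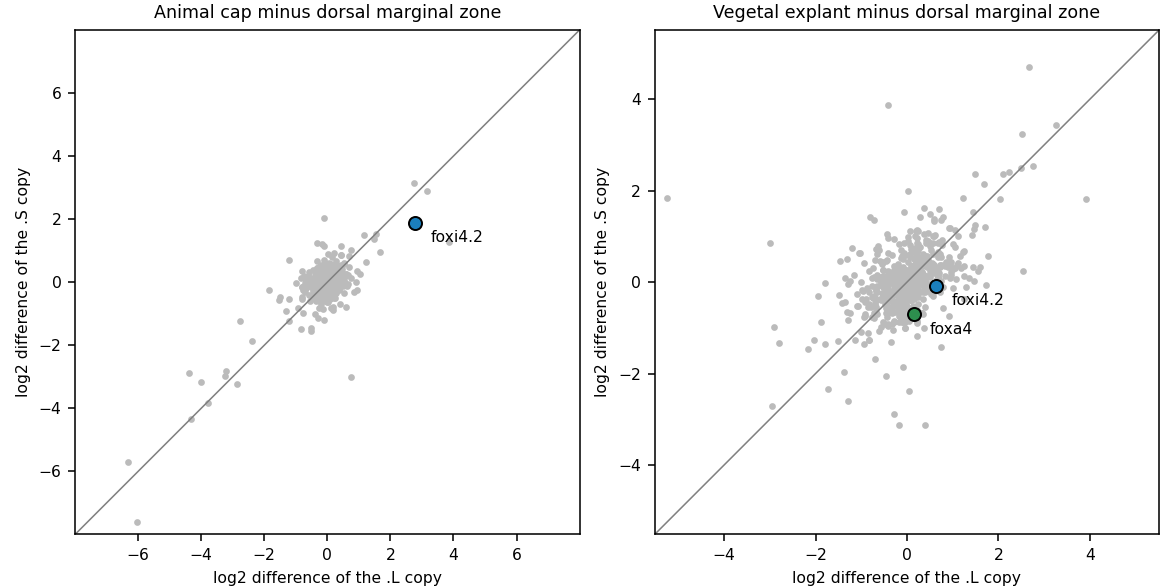
Log2 difference of the .S copy (y axis) against that of the .L copy (x axis) for homeologous gene pairs in which both copies entered the comparison, 544 pairs for animal cap minus dorsal marginal zone (left) and 571 for vegetal explant minus dorsal marginal zone (right); the line marks equal differences. On the left foxi4.2 lies below the line (2.77 for the .L copy, 1.88 for the .S copy), and on the right foxi4.2 and foxa4 both lie below it; foxa4 is absent on the left because foxa4.L missed the filter.

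The rest of the family gave a frame for these patterns. The platform held 24 forkhead probe sets with a single symbol, of 21 genes, and 10 reached the filter in at least 1 explant, 7 of them from the genes described above. A further 2 probe sets that carry several symbols, a forkhead among them, were not named. The other 3 that reached the filter were foxa1.S, foxr1.L and a probe set of foxk2.L, all highest in the vegetal explant. The foxa1.S probe set, for a pioneer factor of endoderm, had 306 vegetally, 103 dorsally, 35.9 ventrally and 34.0 in the cap, and so was 2.98-fold above the dorsal marginal zone, where 9.83% of probe sets were called. Its relative foxa4.L had the same order of explants, but part of that order rests on near ties. The vegetal signal of foxa4.L was 1.11-fold above its dorsal one, and foxa1.S had 35.9 ventrally against 34.0 in the cap. The copy foxa4.S had its highest signal dorsally. The foxr1.L probe set had 571 vegetally and between 182 and 232 elsewhere. Both stood 2-fold or more above every other explant, as 6.01% of probe sets did vegetally. The bright foxk2.L probe set was nearly even, from 907 ventrally to 1235.6 vegetally, and differed by at most 1.36-fold. The other foxk2.L probe set, below the filter, was instead highest in the cap (61.3) and lowest vegetally (26.4).

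Counted over the family, 6 of 8 probe sets that entered were called between the marginal zones, 4 dorsally and 2 ventrally, beside 2.56% of all probe sets. Between animal cap and vegetal explant 8 of 9 were called, 3 in the cap and 5 vegetally (20.9% of all). The counts were 6 of 8 for cap against dorsal (5.86%), 2 of 6 for cap against ventral (4.68%), 4 of 10 for vegetal against dorsal (17.7%) and 5 of 9 for vegetal against ventral (17.1%). The genes were chosen with regional results known and dim genes enter only through the explant where they are high, so these counts are not read as enrichment. The 12 other forkhead probe sets below the filter peaked between 7.03 and 139.7. Among them foxd3.L and foxd3.S, copies of a gene of the dorsal mesoderm and neural crest, were both brightest dorsally, at 75.6 and 76.9. The foxc2.S probe set had 133 dorsally, 121 vegetally, 108 ventrally and 4.09 in the cap. The probe set for foxh1.L, the forkhead transducer of Nodal signals, stayed at or below 33.9.

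**Figure D4:**
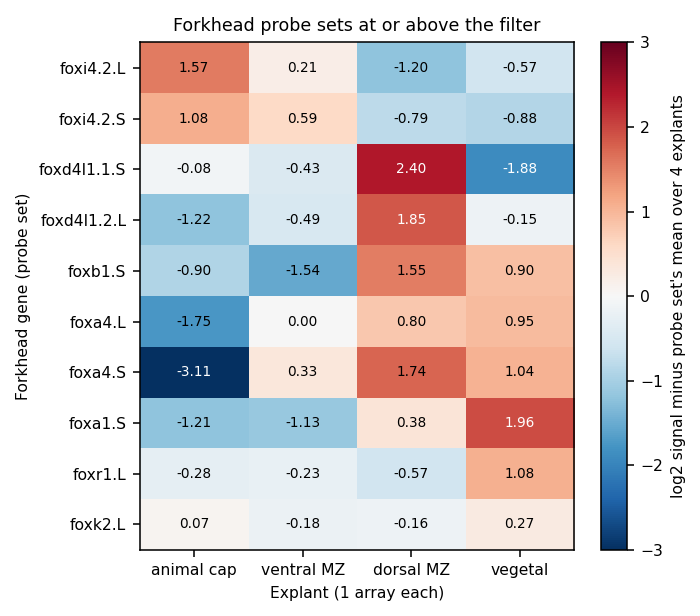
The 10 forkhead probe sets that reached the filter (rows) in the 4 explants (columns, 1 array each; MZ, marginal zone), coloured and labelled by the log2 signal, floored at 24.7, minus the mean of that probe set over the explants. The foxi4.2 rows are highest in the cap, the foxd4l1 rows and foxb1.S and foxa4.S in the dorsal marginal zone, and foxa4.L, foxa1.S, foxr1.L and foxk2.L in the vegetal explant.

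The named genes with the most similar profile were found for each of the 7 forkhead probe sets at or above the filter. Likeness was the root mean square distance between log2 profiles centred on their own mean over the 4 explants, among 5928 named probe sets. The nearest to foxi4.2.L were vill.S (distance 0.27), cnfn.1.L (0.31), a cornifelin gene, and the keratin gene krt12.4.S (0.34). Those signals were 173, 46.0, 4.05 and 26.3 for vill.S in cap, ventral, dorsal and vegetal order, and 992, 226, 88.1 and 153 for cnfn.1.L. The nearest to foxi4.2.S were evpl.L (0.12), an envoplakin gene of the epidermal cornified envelope, mab21l3.S (0.18) and rassf3.S (0.24). Profiles of foxi4.2.L and foxi4.2.S lay 0.40 apart.

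Dorsal profiles had other neighbours. The nearest to foxd4l1.2.L were the myogenic gene myf5.L (0.31) and the Wnt antagonist genes frzb2.L (0.41) and sfrp1.L (0.46). For foxd4l1.1.S the closest profiles were distant, with frzb2.L at 0.70, sfrp1.L at 0.71 and the ephrin receptor gene epha2.L at 0.71. The foxd4l1 profiles lay 1.07 apart. The nearest to foxb1.S were lrig3.S (0.21) and the homeobox genes crx.L (0.29) and otx2.L (0.29). That otx2.L probe set was dim, and lay under the floor in the cap (5.43) and ventrally (11.5). A brighter otx2.L probe set had 135 in the cap, 264 ventrally, 2707 dorsally and 2638 vegetally. Its lowest signal was in the cap, whereas that of foxb1.S was ventral. Near foxa4.L were the N-cadherin gene cdh2.L (0.11), the retinoic acid degrading enzyme gene cyp26a1.L (0.20) and irx3.L (0.20), and near foxa4.S were cnrip1.L (0.31), the Wnt receptor kinase gene ror2.L (0.32) and the glucose transporter gene slc2a1.L (0.39). Several signals of these neighbours lay under the floor, in the cap and elsewhere. For frzb2.L they were those in the cap (0.84), ventrally (1.95) and vegetally (5.33). For krt12.4.S they were those dorsally (2.44) and vegetally (5.52), and for vill.S that dorsally (4.05). With 4 values per profile, and short distances made in part by the floor, these distances only describe the arrays.

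Lists of genes from the same territories were counted without their forkhead members. The lists were chosen with earlier results of these data known, and dim genes enter only through the explant where they are high. Their counts are therefore not read as enrichment. Some lists also share symbols, counted without the copy suffix. The epidermal list shares 3 with the ventral and BMP list, and the organizer list shares 2 each with the neural plate, endoderm and Nodal lists. Of 20 measured epidermal ectoderm genes, 16 were called higher ventrally than dorsally and none dorsally, against 1.16% of all named genes, with a median of -1.54 (all named genes -0.015). Examples were krt12.5.S (5.86-fold), the homeobox gene msx1.L (5.22-fold) and klf17.1.S (5.03-fold). Over the dorsal marginal zone 15 of 20 were called higher in the cap, as foxi4.2.L and foxi4.2.S were, beside 2.04% of named genes (median 2.04, all named genes 0.017). Against the vegetal explant 15 of 21 were called in the cap and 2, gata3.S and gata2.L, vegetally (7.28% and 10.8% of named genes, median 3.49). Between cap and ventral marginal zone 5 of 21 were called in the cap (1.06% of named genes) and 2 ventrally (3.1%). The E-cadherin gene cdh1.S, an epithelial adhesion gene, was 2.68-fold higher in the cap than dorsally.

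Neural plate genes and targets of foxd4l1, counted as a single list, were mixed along the animal-vegetal axis, where foxd4l1.1.S was called in the cap and foxb1.S vegetally. Between the marginal zones 7 of 18 were called dorsally and none ventrally (1.33% of named genes called dorsally), with a median of 0.47. They were otx2.L (at least 8.62-fold), zic4.L (5.19-fold), irx1.L (3.86-fold), irx2.L (3.55-fold), zic1.S (2.63-fold), zic2.S (2.30-fold) and zic2.L (2.06-fold). The zic2.S value is a mean over 2 probe sets. By the brighter alone, zic2.S was called neither here nor between cap and vegetal explant. Between cap and vegetal explant 3 of 19 were called in the cap, the SOX genes sox2.L (6.71-fold) and sox3.S (5.77-fold) and lhx5.S (at least 12.3-fold), and 8 vegetally, led by hesx1.S (at least 38.1-fold) and otx2.L (19.6-fold), with a list median of -0.46 (all named genes -0.041). The copies of geminin (gmnn), a gene that FoxD5 activates in Xenopus, were 1.34-fold (gmnn.L) and 1.07-fold (gmnn.S) higher dorsally than ventrally and were not called.

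Organizer genes stood on the side of foxb1.S and the foxa4 copies. Between the marginal zones 13 of 16 were called dorsally, with a median of 3.38, and the largest differences were at least 70.3-fold (chrd.1.S), at least 53.8-fold (gsc.L) and 40.5-fold (nodal3.1.L). Of 24 organizer genes on the array, 14 entered cap against vegetal, and all were called vegetally, beside 10.8% of named genes. All 16 that entered cap against dorsal were called dorsally, beside 3.46%. Organizer markers were dim in the cap (97.7 summed), so genes entered these comparisons mainly through the other explant. The filter thus largely sets these 2 counts. Over the vegetal explant 7 of 16 were called dorsally, beside 6.2%, and none vegetally. Endoderm genes differed there: 14 of 23 were called vegetally over the dorsal marginal zone (8.71% of named genes), led by gata5.S (10.8-fold), and 1 dorsally (6.2%). Of 24 ventral and BMP genes, 17 were called ventrally and none dorsally (1.16% and 1.33% of named genes), led by ventx3.2.S (17-fold). In the Nodal pathway list 1 of 11 was called dorsally (1.33% of named genes), namely nodal3.1.L, which the organizer list also holds. Between cap and vegetal explant 6 of 12 were called vegetally, led by gdf1.S (77.5-fold), and 3 in the cap, beside 10.8% and 7.28% of named genes.

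In the RefSeq annotation of the assembly Xenopus_laevis_v10.1, used here for names and order only, both foxi4.2 copies adjoin a foxi4.1 gene, and foxd4l1.2.L lies near foxd4l1.1.L. No probe set carried any of these neighbours as its single symbol, and they were not analysed here. The array's own build is not named, so no coordinates are given.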

How the data were processed

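Each of 4 arrays, assigned to its explant by the sample title, has a deposited linear intensity for 15611 probe sets. Per the labels' protocols, RNA was treated with DNase I, column-purified and amplified before biotin labelling. The summarisation software is not given in the sources used here. All arrays had a trimmed mean (2% off each end) of 500.1, so the signals were compared as deposited.

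Signals were floored at the 20th percentile (24.7) and log2-transformed; a comparison took probe sets whose higher signal reached the median (147). The 120 controls were left out. Genes come from the platform annotation (9304 probe sets with 1 symbol), and all 8 members matched RefSeq. A listed gene's value is the mean log2 difference over its probe sets that entered.

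All 6 pairs of explants were described without a test. Genes named are the members, called forkhead genes, the 3 nearest profiles, leading list genes and label checks; others were named after their values were seen. The members and lists were chosen with earlier results of these data known. Calls between the marginal zones were tested on simulated data with changes added to bright probe sets, and the other steps were not. Alternatives were 3 scalings, 2 floors, 2 filters and the brightest probe set per gene. Python 3.11.15, NumPy 2.4.6 and pandas 2.3.3 were used.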

Additional observations from a re-analysis of the deposited data

How the results depend on the processing

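No paired analysis was possible because each explant had 1 array, and none could be left out. Of the 25 member differences of 2-fold or more, 25 kept their direction and size past 2-fold under each of the 3 scalings, without the floor (log2 of the signal plus 1) and without the filter, and 24 with the floor at the 40th percentile, where foxa4.L, animal cap minus vegetal explant, fell to -0.94 on the log2 scale. With the filter raised to 294, 20 had a value and all 20 kept direction and size. A filter only decides which probe sets enter and leaves each difference unchanged. The 2 filter settings therefore could not have changed direction or size. The bound of foxa4.S, cap minus dorsal, ran from -7.50 to -3.10 with the floor, and that of foxd4l1.2.L from -6.15 to -1.31. With the floor at the 40th percentile foxd4l1.2.L also fell to 1.31 for dorsal minus ventral (2.34 as described) and to -1.31 for vegetal minus dorsal (-2.0). Scaled to controls, foxi4.2.L, vegetal minus ventral, reached -1.0 and was just called, so that both foxi4.2 copies were called higher ventrally there. The called forkhead probe sets in that comparison were then 6 (5 as described). Without the filter the called forkhead probe sets rose to 14 for cap against vegetal (8 as described), 10 for dorsal against ventral (6), 13 for cap against dorsal (6), 4 for cap against ventral (2) and 7 for vegetal against dorsal (4), as 24 then entered. With the filter raised, cap against ventral had 1. The brightest probe set per gene moved no list's count of calls by over 1.5 times, but of the 2 epidermal genes called vegetally over the cap it left 1, as gata2.L lost its call. Some other counts also moved. In the neural plate list, 6 of 7 dorsal calls over ventral and 7 of 8 vegetal calls over the cap remained, as zic2.S lost both. Centring on medians shifted the median of all probe sets by 0.22 for cap minus vegetal, and control scaling by -0.21 for dorsal minus ventral. The cap share of calls against the vegetal explant was then 59.2% (43.8% as deposited) and the dorsal share 29.5% (54.1%). The cap share against ventral was 41.7% centred and 15.4% on controls (30.7%). The vegetal share was 44.0% centred against dorsal (55.5%), and against ventral 44.0% centred and 35.4% on controls (54.1%).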

Other observations

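The sparse group of probe sets higher both in the animal cap than vegetally and dorsally than ventrally holds foxd4l1.1.S. It had 6 probe sets with a gene symbol, named here after their values were seen. For the neural plate zinc finger gene zic1.S, the probe set in this group had signals of 863 in the cap, 356 ventrally, 1214 dorsally and 327 vegetally. Averaged over its 2 probe sets, zic1.S was 1.93-fold higher in the cap than vegetally and was not called there. The ephrin receptor gene epha2.L had 559, 467, 985 and 138 in the same order, and the lysophosphatidic acid receptor gene lpar6.L 372, 269, 686 and 127. The others were trip12.S and MGC68910. Among these 6, foxd4l1.1.S was the only gene 2-fold or more higher dorsally than in every other explant.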
